A study of Mus musculus with 6 samples.

Results

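Neuronal microtubule, neurofilament and motor genes were compared between mouse primary hippocampal neurons that had received microglial or astrocytic apolipoprotein E (apoE) particles. The set was named gene by gene for its place in the neuronal cytoskeleton. A symbol counted as a member when its deposited log2 value was at least 3.32 in 3 or more of the 6 libraries. All 38 listed symbols met this rule, out of 15059 genes that passed it and 47593 symbols in each file. Both groups were wild-type neurons given 6 µg/mL of particles on culture day 10 and kept with them for 24 h, with 3 samples each. The groups thus shared genotype, tissue, medium and dose, and differed by the labels in the glial source of the particles alone. Untreated neurons were not analysed here, so every direction is microglial relative to astrocytic apoE. The labels do not state that the samples of a group were separate cultures, and the p-values measure the spread between these samples, which may be technical.

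Microtubules are hollow polymers of alpha- and beta-tubulin pairs, and neurons build them from several tubulin isotypes encoded by separate genes. Structural microtubule-associated proteins such as MAP2 and tau stabilise the polymer in dendrites and axons, while stathmins bind free tubulin and favour disassembly. Neurofilaments set axon calibre, kinesins carry cargo away from the cell body, and cytoplasmic dynein carries it back. Hippocampal neurons in culture use these proteins to extend and maintain axons and dendrites.

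The log2 values share 1 scale across libraries and carry no sequencing depth. Pairs of libraries of the same group differed by a median of 0.026 to 0.037 without regard to sign, and pairs from different groups by 0.043 to 0.056. Markers shared by most neurons were high and differed little: the linear values (2 to the power of the deposited value) of 15 such genes summed to 75360 to 76118 with astrocytic and to 74942 to 75917 with microglial apoE. Other cells were present too. The 15 astrocyte markers summed to 89577 to 90172 with astrocytic and to 75646 to 76249 with microglial apoE. None was at exactly 0, but Gjb6 lay below 0 in every library and was not tested. The 12 markers of dividing cells, none at 0, summed to 5376 to 5386 and to 4370 to 4416. The 8 neural progenitor markers summed to 18796 to 19852 and to 19368 to 19943. For 10 oligodendrocyte lineage markers the sums were 6504 to 6808 and 6610 to 6774. The 12 microglial markers summed to no more than 614.3 in any library.

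Called members went down more often than up, and by little. Over the whole set the log2 fold change was below 0 in 22 members and above 0 in 16. Of the 38 genes, 7 fell and 1 rose with microglial apoE by the linear model test of limma at an adjusted p under 0.05, and 30 did not pass. The genes that fell were the tubulins Tuba1a and Tubb2b, the stathmins Stmn4 and Stmn2, the neurofilament gene Nefl, the doublecortin-like kinase gene Dclk1 and the dendritic Map2. The gene that rose was Dpysl2, a collapsin response mediator. These 8 members made up 21.1% of the set, beside 24.8% called among all genes tested, and beside 32.5% of the 4514 tested genes with a mean value of 10 or more, where 34 of the 38 members lie. By direction the shares were 18.4% lower, beside 11.8% of all genes and 13.5% of those at 10 or more, and 2.63% higher, beside 13.0% and 19%. The share of higher among all called genes was 52.4% as deposited, and moved to 34.8% with median centring of the libraries, 65.6% with their linear sums made equal and 41.7% with mitochondrial genes left out of that sum.

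Every called member had astrocytic and microglial libraries that did not overlap, as did Ina, Dpysl3 and Ank2, which were not called. That made 11 members without overlap (28.9%), beside 38.9% of all genes tested. The median log2 fold change of the members was -0.02, beside -0.00057 over all genes tested, and the median size without sign was 0.047, beside 0.041 over all genes and 0.054 over those with a mean of 10 or more. With 1 exception, the intervals of uncalled members lay between -0.13 and 0.14 on the log2 scale (95%). The exception was Dync1h1, with an upper bound of 0.24. The limma standard errors (SE) of the members ran from 0.024 to 0.055. The transformation inferred for these values shrinks differences of weakly expressed genes, and 6 of the 38 members varied within groups by less than counting alone would give if linear values were counts.

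**Figure D1:**
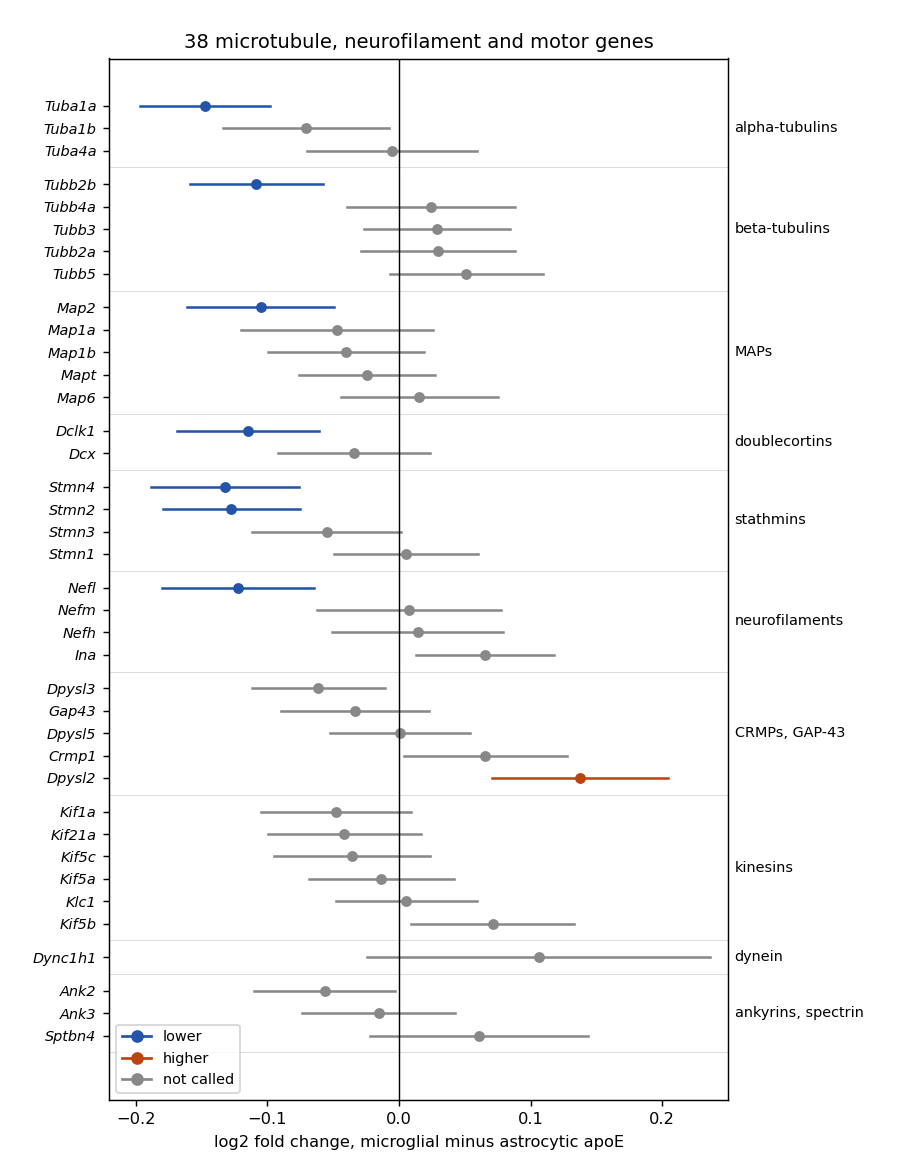
Log2 fold change (microglial minus astrocytic apoE, n = 3 libraries per group) of the 38 members with 95% intervals from limma, grouped by role, with called genes in colour. The 7 called lower genes lie between -0.15 and -0.10, the called higher gene Dpysl2 lies at 0.14, and no kinesin, dynein, ankyrin or spectrin gene is coloured.

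Of the 3 alpha-tubulins 1 fell. Tuba1a, the main alpha-tubulin of developing neurons (chromosome 15, 98949837 to 98953703, GRCm38, protein-coding), stood at 16.19, 16.17 and 16.17 with astrocytic apoE and at 16.02, 16.06 and 16.02 with microglial apoE. All 3 microglial libraries were lower than any astrocytic one, and the log2 fold change was -0.15 ± 0.024 (SE), a linear ratio of 0.903 (limma adjusted p = 4.3e-05). Tuba1b, its broadly expressed neighbour on the same chromosome (98931425 to 98934565), had values of 13.00, 12.97 and 12.87 against 12.84, 12.91 and 12.87. These overlapped, and Tuba1b did not pass (-0.07 ± 0.031 SE, adjusted p = 0.097). It passed without astrocytic replicate 3 (-0.11, adjusted p = 0.0028). Leaving out that library raised the calls over all genes tested to 4541, from 3742 with all libraries. Tuba4a, an isotype of mature axons, was at 9.15 to 9.24 in all libraries (-0.01 ± 0.031 SE, adjusted p = 0.93). Of all 50-base windows of its transcript, 48.8% occur in another gene on either strand, mostly in Stk16, which overlaps it on the opposite strand.

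The coding sequences of Tuba1a and Tuba1b are nearly the same, which bears on how firmly their reads can be told apart. They have 1356 bases each with the stop codon and differ at 23 of them (98.3% identity). Of all 50-base windows of the Tuba1a transcript, 75.5% occur in a transcript of another gene, 46.9% in Tuba1c and 43.4% in Tuba1b. For Tuba1b the share was 83.1%, with 59.3% in Tuba1c. Annotated exons of Gm49450, on the same strand, overlap 26.2% of the exonic bases of Tuba1a. Of the exonic bases of Tuba1b, 27.4% overlap Gm49450 or Gm41396, the latter on the opposite strand. How reads matching several genes were counted is not given in the sources used here, so the values of both genes are uncertain to that extent. The third near-identical gene, Tuba1c, which is no member, spread from 10.28 to 10.64 with astrocytic apoE and from 10.18 to 10.30 with microglial apoE (-0.26 ± 0.11 SE, adjusted p = 0.18). Its wide spread lay in the astrocytic group, where replicate 3 was lowest for Tuba1c as it was for Tuba1b.

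Among beta-tubulins 1 of 5 fell. Tubb2b, a beta-tubulin of developing brain (chromosome 13, 34126748 to 34130466), stood at 14.35, 14.34 and 14.32 against 14.23, 14.24 and 14.21 (astrocytic, then microglial apoE). The groups did not overlap, with a log2 fold change of -0.11 ± 0.025 SE (linear ratio 0.928, adjusted p = 0.0017). Its neighbour Tubb2a, 45.6% of whose 50-base windows occur in Tubb2b, did not pass (0.03 ± 0.028 SE, adjusted p = 0.48). Tubb5, the beta-tubulin of many cell types including dividing ones, had the largest difference of the uncalled members here: 14.00, 14.03 and 14.09 against 14.06, 14.14 and 14.08, which overlapped (0.05 ± 0.028 SE, adjusted p = 0.20). It passed without astrocytic replicate 3 (0.08, adjusted p = 0.024). The neuron-specific Tubb3 (0.03 ± 0.027 SE) and the late Tubb4a (0.02 ± 0.031 SE) did not pass either.

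Per kilobase of its longest coding transcript, Tuba1a was the most abundant tubulin, at 41122 ± 336 linear units (SD, n = 3) with astrocytic apoE and 37131 ± 619 with microglial apoE. Tubb2b followed at 9468 ± 105 and 8783 ± 75.7, Tubb5 at 6358 ± 210.2 and 6587 ± 183, and Tubb2a at 5317 ± 137 and 5428 ± 167. Tuba1b (4528 ± 205 with astrocytic apoE) and Tubb3 (4139 ± 114) came next and did not overlap with Tubb2a in their level, whereas with microglial apoE their own levels, 4310 ± 106 and 4222 ± 48.6, differed by less than the SD of Tuba1b. Tubb4a and Tuba4a were low, at 941 ± 16.0 and 206 ± 6.58 with astrocytic apoE. The order of the isotypes by mean was the same in both groups.

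**Figure D2:**
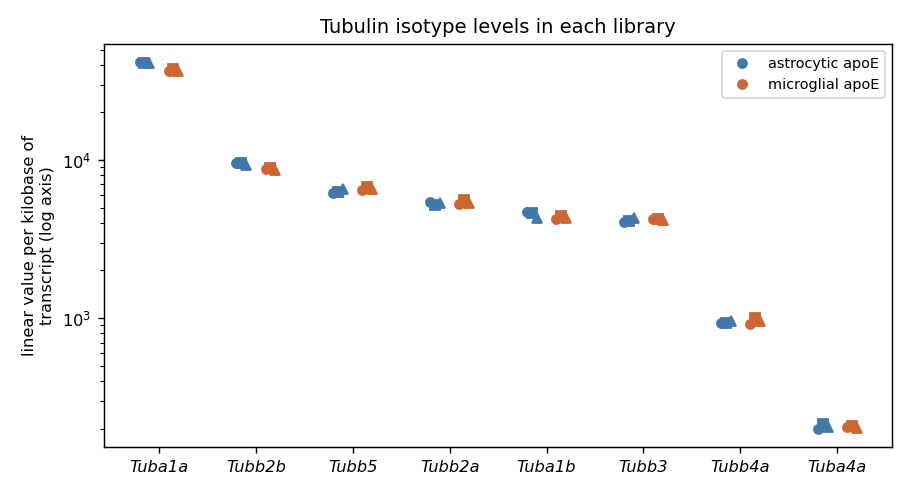
Linear value per kilobase of the longest coding transcript (log axis) of the 8 tubulin members, with 1 point per library and the replicate number shown by the marker shape (circle 1, square 2, triangle 3). Tuba1a lies above all other isotypes in every library, and its microglial points lie below its astrocytic points.

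Of the 5 structural microtubule-associated protein genes 1 fell and none rose. Map2, which marks dendrites (chromosome 1, 66175273 to 66442583), was at 14.64, 14.64 and 14.61 with astrocytic and at 14.56, 14.47 and 14.55 with microglial apoE. The groups did not overlap, microglial replicate 2 was the lowest library, and the log2 fold change was -0.10 ± 0.027 SE (adjusted p = 0.0055). The call was lost without astrocytic replicate 2 (adjusted p = 0.051). Map1b, an early axonal protein, had 15.22, 15.20 and 15.19 against 15.19, 15.08 and 15.21 (-0.04 ± 0.029 SE, adjusted p = 0.33). Map1a, its adult counterpart, had 12.27, 12.30 and 12.39 against 12.31, 12.19 and 12.31 (-0.05 ± 0.035 SE, adjusted p = 0.36). In both genes the groups overlapped and microglial replicate 2 was again the lowest library. Tau (Mapt, -0.02 ± 0.025 SE) and the cold-stable microtubule protein gene Map6 (0.02 ± 0.029 SE) did not pass.

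In the doublecortin family, whose proteins bind microtubules of migrating and growing neurons, Dclk1 fell and Dcx did not pass. Dclk1 (chromosome 3, 55242364 to 55539068) was at 13.10, 13.13 and 13.08 against 13.01, 12.96 and 12.999, with no overlap (-0.11 ± 0.026 SE, linear ratio 0.924, adjusted p = 0.0019). Dcx was at 13.25, 13.27 and 13.18 against 13.19, 13.17 and 13.23 (-0.03 ± 0.028 SE, adjusted p = 0.41), and its groups overlapped.

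The stretches before the starts of Map2 and Dclk1 are shown because both genes fell and both have enough sequence outside annotated exons in the RefSeq promoter table (GRCm38.p6). They run 5′ to 3′ on the gene's strand, up to 250 bases before the RefSeq start and ending before the first base of any GENCODE exon. Capitals mark matches on either strand to any of 5 motifs. These were the TATA box letters TATAA, the CCAAT box named by its letters, the GC box core GGGCGG, the E-box form CAGCTG, and an interferon-stimulated response element core made of a pair of GAAA with a pair of free bases between. For Dclk1, which has 2 starts in the table, the upstream one is shown.
Map2, chr1:66175079-66175272, plus strand: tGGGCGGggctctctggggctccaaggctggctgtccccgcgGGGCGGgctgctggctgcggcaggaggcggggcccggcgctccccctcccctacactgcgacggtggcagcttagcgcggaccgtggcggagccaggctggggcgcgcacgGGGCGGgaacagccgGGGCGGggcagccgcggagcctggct
Dclk1, chr3:55242114-55242363, plus strand: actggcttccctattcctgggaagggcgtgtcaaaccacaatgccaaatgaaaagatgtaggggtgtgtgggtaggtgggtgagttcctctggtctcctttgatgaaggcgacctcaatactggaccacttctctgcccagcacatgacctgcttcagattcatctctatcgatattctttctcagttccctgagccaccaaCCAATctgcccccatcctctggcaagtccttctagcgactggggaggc
Map2 holds GGGCGG at 4 places, and Dclk1 holds CCAAT at 1 place, so no motif searched was common to both stretches. Of the 38 members, 23 had an entry in the table. In the table's windows of 300 bases, GGGCGG occurred in 17 of those 23 members, Map2 and Tuba1a included, and in 35.7% of all promoters. For TATAA the counts were 8 of 23 and 24.9%, for CCAAT 8 of 23 and 37.4%, for CAGCTG 4 of 23 and 16.3%, and for the response element core 1 of 23 (Kif1a) and 3.44%. No motif contains another, and a match is a description of the letters only.

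Of the 4 stathmins 2 fell. Stmn2 (SCG10), a growth cone stathmin of neurons (chromosome 3, 8509360 to 8561606), stood at 13.82, 13.84 and 13.80 with astrocytic and at 13.68, 13.72 and 13.68 with microglial apoE. The difference was -0.13 ± 0.025 SE (linear ratio 0.916, adjusted p = 0.00046). Stmn4 (RB3), another neuronal member (chromosome 14, 66344296 to 66361680), had 12.12, 12.12 and 12.17 against 12.04, 11.995 and 11.98 (-0.13 ± 0.027 SE, linear ratio 0.9125, adjusted p = 0.00077). Neither gene overlapped between groups, and no 50-base window of either occurs in another gene. Stmn3 (SCLIP) had 12.73, 12.72 and 12.74 against 12.64, 12.73 and 12.66, where microglial replicate 2 fell among the astrocytic libraries (-0.05 ± 0.027 SE, adjusted p = 0.15). Without that library Stmn3 passed (-0.08, adjusted p = 0.019). Stmn1, the widely expressed founder of the family that dividing cells also make, did not pass (0.01 ± 0.026 SE, adjusted p = 0.91). Of its 50-base windows, 36.5% occur in another gene.

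Of the neurofilament genes only the light chain passed. Nefl (chromosome 14, 68083863 to 68089095) was at 10.91, 10.87 and 10.88 with astrocytic and at 10.78, 10.78 and 10.73 with microglial apoE, with no overlap (-0.12 ± 0.028 SE, linear ratio 0.919, adjusted p = 0.0019). The gene lies within the annotated span of Nefm, which is on the other strand, and 32.8% of its exonic bases overlap annotated Nefm exons. Since the strand setting of the counting is not given in the sources used here, reads of the 2 genes cannot be told apart in that stretch. Nefm itself did not pass (0.01 ± 0.034 SE, adjusted p = 0.90). The heavy chain Nefh was low, at 6.06 to 6.21, and also missed the threshold (0.01 ± 0.031 SE). Alpha-internexin (Ina), a filament protein of developing neurons, had 12.82, 12.84 and 12.83 against 12.87, 12.91 and 12.90. Its microglial libraries were all higher without reaching the threshold (0.07 ± 0.025 SE, adjusted p = 0.062). With the linear sums of the libraries made equal it passed (adjusted p = 0.027), as it did without astrocytic replicate 3 (adjusted p = 0.047).

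Collapsin response mediator proteins bind tubulin in growth cones and act in semaphorin signalling. Dpysl2 (CRMP2, chromosome 14, 66802864 to 66868688) stood at 11.03, 11.12 and 11.18 with astrocytic and at 11.22, 11.26 and 11.26 with microglial apoE. The astrocytic libraries were spread more widely (SD 0.075, against 0.028), none reached a microglial one, and the difference was 0.14 ± 0.032 SE (linear ratio 1.10, adjusted p = 0.0027). Dpysl3 (CRMP4), the most abundant of the family per kilobase, had 15.46, 15.49 and 15.49 against 15.42, 15.39 and 15.44 (-0.06 ± 0.025 SE, adjusted p = 0.070). The groups were separate, and the gene passed with median centring (-0.08, adjusted p = 0.014). Crmp1 had 13.74, 13.76 and 13.85 against 13.83, 13.90 and 13.82, with overlap (0.07 ± 0.030 SE, adjusted p = 0.11), and it passed without astrocytic replicate 3 (0.10, adjusted p = 0.0053). Dpysl5 (0.0007 ± 0.026 SE) and the growth cone phosphoprotein gene Gap43 (-0.03 ± 0.027 SE) did not pass.

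No kinesin passed. Kif1a, which carries synaptic vesicle precursors, was at 13.78, 13.76 and 13.81 against 13.78, 13.68 and 13.76 (-0.05 ± 0.028 SE, adjusted p = 0.22). Kif5b, the ubiquitous heavy chain of conventional kinesin, was at 12.17, 12.11 and 12.04 against 12.19, 12.16 and 12.19 (0.07 ± 0.030 SE, adjusted p = 0.085). Both overlapped between groups. Kif5b passed without astrocytic replicate 1 (0.10, adjusted p = 0.029). The neuronal heavy chains Kif5a (-0.01) and Kif5c (-0.04), the microtubule growth regulator Kif21a (-0.04) and the light chain Klc1 (0.01) had SEs of 0.026 to 0.029 and adjusted p of 0.30 to 0.90.

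Dync1h1, the heavy chain of cytoplasmic dynein, stood at 13.75, 13.79 and 13.89 with astrocytic and at 13.98, 13.80 and 13.96 with microglial apoE. Microglial replicate 2 lay among the astrocytic libraries, and the gene did not pass (0.11 ± 0.055 SE, adjusted p = 0.22). Without that library it passed at 0.16 (adjusted p = 0.0052), and centring on the pan-neuronal markers also gave a call (0.10, adjusted p = 0.010). The ankyrin encoded by Ank3 and beta-IV spectrin (Sptbn4) anchor channels at the axon initial segment. Ank2, which encodes another ankyrin, had 12.72, 12.73 and 12.78 against 12.69, 12.69 and 12.69 (-0.06 ± 0.026 SE, adjusted p = 0.12), separate but not called. Sptbn4 had 9.29, 9.24 and 9.43 against 9.41, 9.39 and 9.35 (0.06 ± 0.040 SE, adjusted p = 0.28), with overlap, and it passed without astrocytic replicate 3 (0.12, adjusted p = 0.0074). Ank3, the organiser of the initial segment, did not pass (-0.02 ± 0.028 SE, adjusted p = 0.74).

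**Figure D3:**
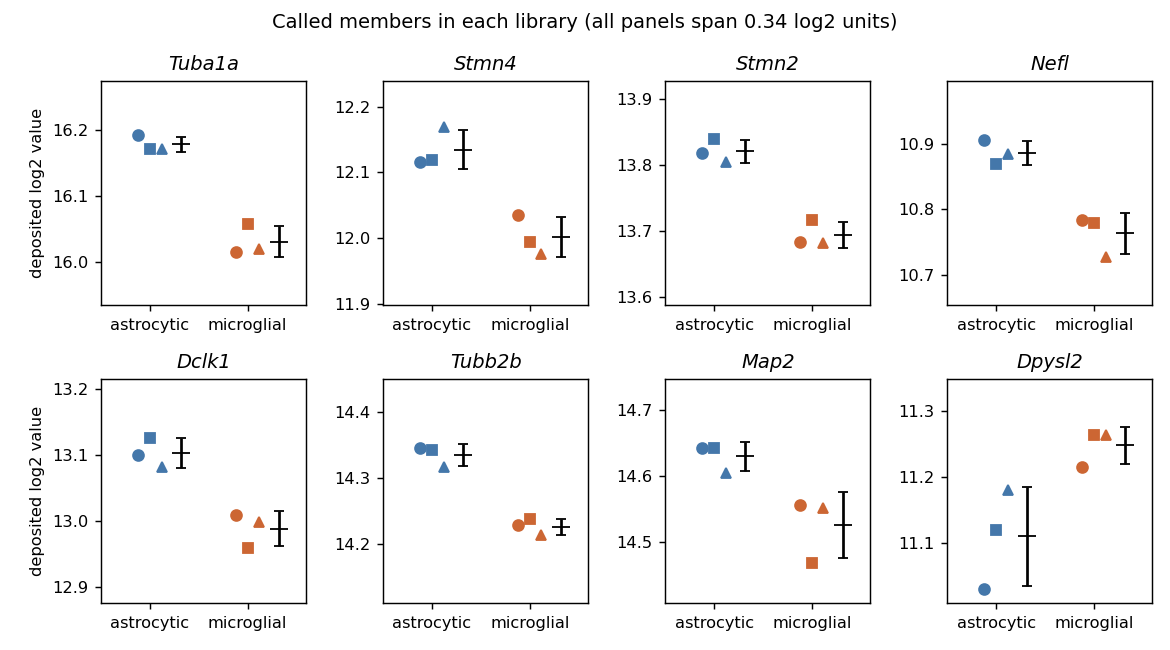
Deposited log2 value of the 8 called members in each library (circle, replicate 1; square, 2; triangle, 3), with the group mean and SD in black. In each panel the 3 microglial points are separate from the 3 astrocytic points, and Dpysl2 alone is higher with microglial apoE.

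Members of 1 family were also set against each other within each library, in 5 pairs chosen after their values were seen. The log2 difference of Tubb2b over Tubb2a was 1.27 ± 0.046 (SD, n = 3) with astrocytic apoE and 1.13 ± 0.038 with microglial apoE. For Stmn2 over Stmn1 it was 0.15 ± 0.042 and 0.02 ± 0.013, for Nefl over Nefm 1.70 ± 0.069 and 1.57 ± 0.025, for Tuba1a over Tuba1b 3.23 ± 0.058 and 3.16 ± 0.016, and for Dclk1 over Dcx -0.13 ± 0.027 and -0.21 ± 0.023. In all 5 pairs the groups were separate, with an exact two-sided permutation p = 0.10 (0.10 also after adjustment over the 5), the smallest that 3 against 3 samples can give. That limit is of the exact test. In each pair the first gene was already called lower without overlap and the second was not called. The separation of the pairs is therefore no independent support. Shared sequence or exons, given above, also limit the pairs of Tuba1a, Tubb2b, Nefl and Stmn1. Within a library such a difference does not move with its scaling.

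Together the linear values of the 38 members made up 2.58% ± 0.029 (SD, n = 3) of the summed linear value in the astrocytic group and 2.52% ± 0.019 in the microglial group. Relative to the astrocytic mean, the summed level with microglial apoE was 96.8% ± 0.658, and 98.0% ± 1.06 with Tuba1a left out. These sums weigh abundant genes most. In the same libraries the pan-neuronal markers were at 99.4% ± 0.725, with 0 of 15 higher and 3 lower (Thy1 -0.12, Elavl4 -0.13 and Rbfox3 -0.08). The 3 with the highest values, Celf4 (-0.05), Elavl3 (0.03) and Syt1 (0.04), did not pass. Excitatory neuron markers were at 86.3% ± 0.411, with 0 of 8 higher and 4 lower (Neurod6 -0.47, Camk2a -0.15, Tbr1 -0.09 and Slc17a6 -0.09). Inhibitory neuron markers were at 117% ± 1.25, with 8 of 10 higher and 1 lower (Pvalb -0.20). Gad1 (0.25), Sst (0.33) and Gad2 (0.17), the highest of that list, were among those that rose. Astrocyte markers were at 84.4% ± 0.377, with 12 of 14 tested lower, Fabp7 (-0.40) and Aqp4 (-0.41) among them, and Slc1a3 higher (0.09). The part of these shifts in the members' values was not tested. In bulk RNA, fewer cells of a type and less RNA per cell cannot be told apart. With each library centred on the pan-neuronal markers, 7 members were lower and 2 higher (Dpysl2 and Dync1h1). This centring moved the members' median only from -0.0197 to -0.0255, so it could change few calls. Markers shared by most neurons cannot follow a shift between excitatory and inhibitory markers, whose part was not tested.

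**Figure D4:**
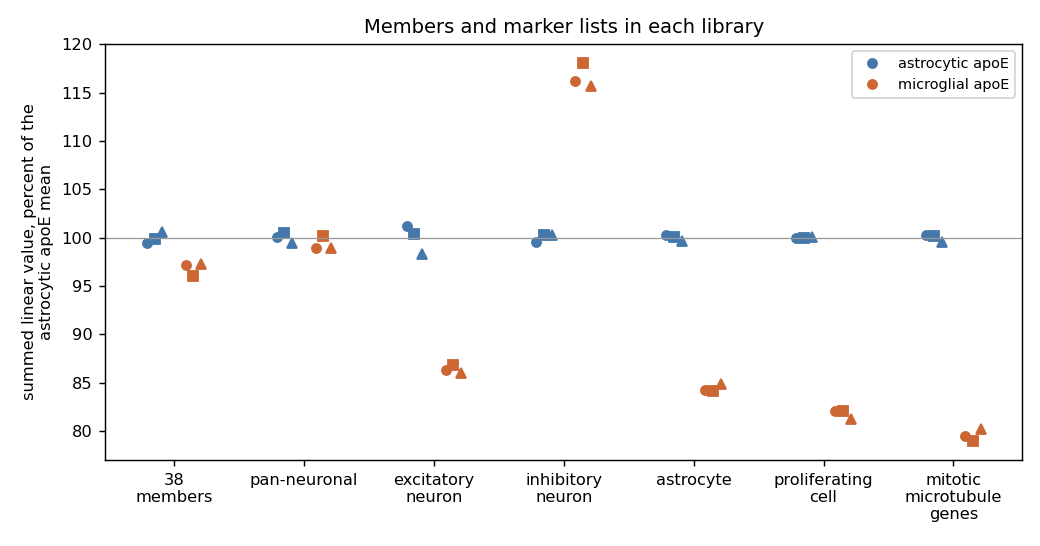
Summed linear value of the members, of marker lists and of mitotic microtubule genes in each library, as a percent of the astrocytic apoE mean (circle, replicate 1; square, 2; triangle, 3). The members with microglial apoE lie at 96.0% to 97.2%, below the pan-neuronal markers (98.9% to 100.2%). The astrocyte and dividing-cell lists lie near 84% and 82%, and inhibitory neuron markers at 115.7% to 118.1%.

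Within the microglial group the members' values varied with transcript length. Across the 38 members, the deviation of a library from its group mean had a Pearson r with log2 transcript length of 0.65 in replicate 1, -0.80 in replicate 2 and 0.69 in replicate 3, and of -0.09, -0.04 and 0.10 in the astrocytic libraries. These r describe genes within libraries, which share the library, and the 3 deviations of a group sum to 0. In microglial replicate 2 the 19 members with transcripts of 4000 bases or more had a median deviation of -0.03 and the 19 shorter ones 0.03. Over 14553 genes with an annotated length the r of that library was -0.34, and 0.23 and 0.20 in the other microglial libraries. Among the long members, for example, the SD of Map1b with microglial apoE was 0.069, against 0.015 with astrocytic, and that of Ank3 was 0.053, against 0.0064. The fold change itself had an r of 0.14 with length over the members. With the trend by length and GC content removed from each library, 10 members were lower (Stmn3, Dpysl3 and Kif1a in addition to the 7) and 2 higher (Dpysl2 and Kif5b). Over all genes tested, 4367 were called with that trend removed, against 3742 as deposited. Without microglial replicate 2, 8 members were lower and 2 higher, and the members' median was -0.0071. That fit called 3259 of all genes tested.

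**Figure D5:**
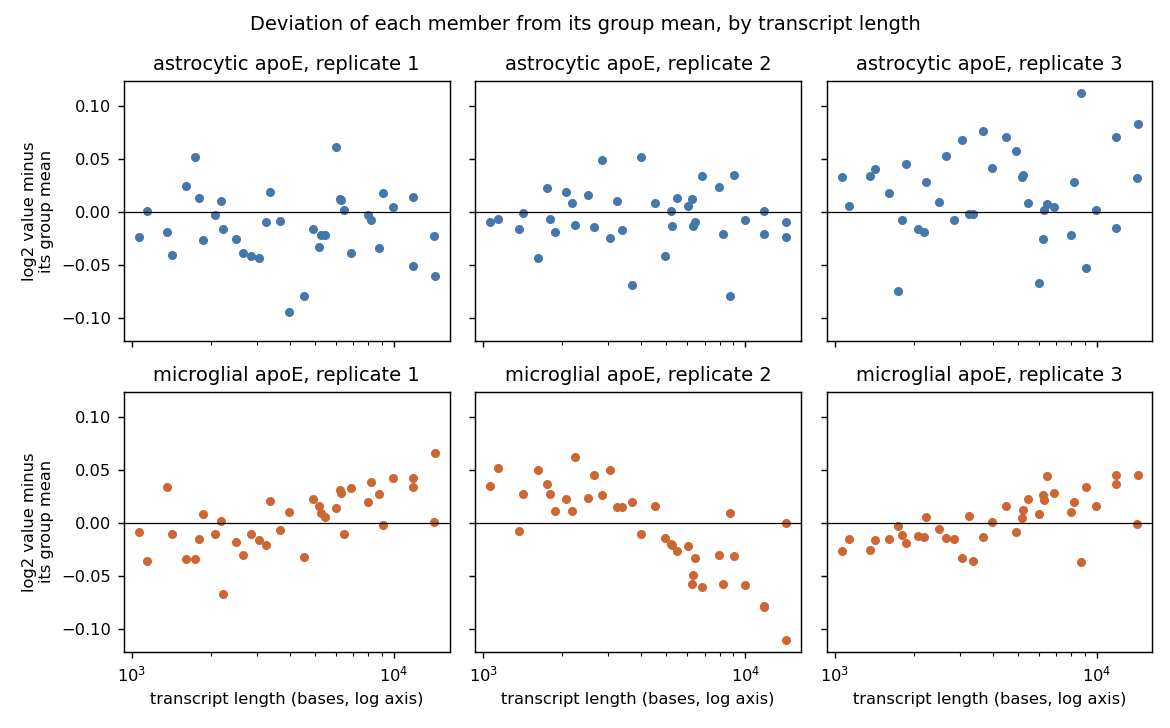
Deposited log2 value of each member minus its group mean, against the length of its longest coding transcript (bases, log axis), in each of the 6 libraries. Points slope down in microglial replicate 2 (r = -0.80), slope up in microglial replicates 1 and 3 (0.65 and 0.69), and show little slope in the astrocytic libraries.

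The wider microtubule system was read from lists that exclude the members. The counts of these lists stand beside 24.8% called among all genes tested, 13.0% higher and 11.8% lower. None of 8 tested further tubulins passed (0 higher and 0 lower by limma). Of 26 genes that fold, modify or sever tubulin 4 fell and 2 rose: the carboxypeptidase gene Vash1, which removes the terminal tyrosine of alpha-tubulin (-0.26 ± 0.039 SE), the severing-related Fignl1 (-0.17), the deacetylase Sirt2 (-0.12), the glutamylase Ttll7 (-0.11), the folding cofactor Tbcc (0.11) and the severing enzyme Fign (0.06). Among 37 other microtubule-associated and plus-end genes 2 fell (Tppp -0.15 and Dst -0.09) and 4 rose (Map1s 0.14 and the microtubule affinity kinases Mark4 0.10, Mark2 0.09 and Mark1 0.075).

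Transport genes beyond the members included the largest rise among the called genes of these lists. Hap1, a huntingtin-associated adaptor of kinesin and dynein, was at 11.26, 11.25 and 11.29 with astrocytic and at 11.69, 11.66 and 11.66 with microglial apoE (0.41 ± 0.027 SE, adjusted p = 1e-11). Of 32 tested transport kinesins and adaptors Fez2 (0.11) and Mapk8ip3 (0.08) rose as well, and Kifc2 (-0.12), Trak2 (-0.10) and Kif9 (-0.09) fell. Among 28 dynein and dynactin genes 5 rose and 5 fell. The rises were the light chain Dynll2 (0.15), the intermediate chain Dync1i1 (0.11), Ndel1 (0.09), Dctn4 (0.08) and Dync1li1 (0.07), and the falls were Nde1 (-0.22), Dynlt1f (-0.14), Actr1b (-0.13), Dynlt3 (-0.10) and Dynlt1c (-0.08), the Dynlt1 genes being near-identical copies. Called genes of these lists beyond the first 3 by p, and called markers that are not among the 3 highest of their list, were named after their values were seen.

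Initial segment and membrane skeleton genes showed 1 higher (Trim46, which bundles axonal microtubules, 0.08) and 2 lower (Tmod2 -0.13 and Add2 -0.11) of 16. Of 14 growth cone genes Fscn1 (0.12) and Rtn1 (0.10) rose and Shtn1 (-0.12), Ablim1 (-0.11) and Cnr1 (-0.08) fell. The median log2 fold change of each of these 7 lists lay between -0.024 and 0.019. Mitotic microtubule genes differed in size: 19 of 20 fell, with a list median of -0.25, among them the spindle motor Kif11 (-0.58 ± 0.032 SE), the midzone bundler Prc1 (-0.47 ± 0.029 SE) and Ckap2l (-0.42 ± 0.030 SE), while Kifc1 (-0.07) did not pass. These 3 fell by more than any member, in libraries where 11 of 12 markers of dividing cells also fell.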

How the data were processed

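Total RNA of 6 samples was sequenced with BGI's DNBSEQ protocols, per the labels' protocols. The authors deposited 1 log2 value per gene symbol and sample, and no header or label names the transformation. FastQC, HISAT2, featureCounts, DESeq2 and GRCm38 are named without roles in the submitters' processing notes. Exactly 0 stood for 21031 symbols in all libraries and for none in only some, and the lowest value was -1.97, which are features of a regularized logarithm. Depth is unknown. The linear values summed to 18060473 to 18337624 per library, a scale and no read count.

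These log2 values entered limma (3.58.1, R 4.3.3, trend and robust options) without rescaling, microglial against astrocytic apoE, over 15059 genes with at least 3.32 in 3 or more libraries, with Benjamini-Hochberg adjustment over all of them and a threshold of 0.05. The fit was tested on simulated data. All members were named, with values for each sample for called members, the most abundant and the largest uncalled member of each role, up to 3 called genes per further list by p, and the 3 highest genes of a marker list set beside a result. The members and lists were chosen with earlier results of these data known. Shared sequence and lengths came from GENCODE M21. Alternatives changed the filter, scaling, variance model, length and GC trend, replicate block and libraries used. Python 3.11.15, pandas 2.3.3 and matplotlib 3.10.9 were used for tables and figures.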

Additional observations from a re-analysis of the deposited data

How the results depend on the processing

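Each of the 38 members was refitted under 15 alternatives. Of 570 values, 547 kept their call, 1 lost it (Map2 without astrocytic replicate 2) and 22 gained one, 12 higher and 10 lower, in 11 members that were not called as deposited. No called member changed sign. The count of lower members was 7 as deposited, 11 with median centring, and 6 to 8 when 1 library was left out. Over all tested genes the count of lower was 1780 as deposited and 2767 with median centring. The count of higher members was 1 as deposited, 3 with the linear sums made equal, and 2 with centring on pan-neuronal markers, with the variance model without trend and robust options, and after removal of the trend by length and GC. It was 1 to 5 when 1 library was left out, the 5 being without astrocytic replicate 3. Over all tested genes the count of higher was 1962 as deposited and 2516 with the linear sums made equal. Without astrocytic replicate 3 it was 2374, and 4541 genes were called in all, against 3742 as deposited. The members' median log2 fold change was -0.0381 with median centring, where that of all tested genes was -0.019, and -0.03 to -0.0071 when 1 library was left out.

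Title numbers 1 to 3 recur in both groups, and no label says that same-numbered libraries share a culture or day. Deviations of same-numbered libraries from their group means correlated at 0.039, -0.12 and -0.19 across genes. Correlations of deviations from means of 3 libraries cannot settle this, so whether the samples are paired is not known. With the replicate block, 7 members were lower and 2 higher (Dync1h1 in addition, adjusted p = 0.034), and 3388 genes were called in all against 3742 without it. The libraries did not each correlate best with their own number.

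Values hold no depth, so the counting limit of these libraries is not known. The comparison with counting given above holds only if linear values were counts. Fits that leave out a library used the genes tested with all 6.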
